A study of Rattus norvegicus with 4 samples.

Results

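The caspase cascade was described through 8 genes of INS-1 832/3 cells, taken by symbol from a list of caspases, apoptosome parts and caspase inhibitors: Casp2, Casp6, Casp8, Casp9, Apaf1, Cycs, Diablo and Xiap. They are 8 of the 23360 genes in the files, and 17 of the 31201 transcripts carry their symbols. INS-1 832/3 is a rat insulinoma line that secretes insulin, is kept under Geneticin and carries the human insulin gene. Messenger RNA was sequenced from 2 cultures grown as a 2D monolayer and from 2 cultures that were 3D bioprinted in GelXA LAMININK 411, a gelatin methacrylate hydrogel with laminin-411 that was printed as a grid and crosslinked with light. All 4 cultures were harvested on day 5 at passage 3 in the same RPMI-1640 medium with serum, HEPES, pyruvate and 2-mercaptoethanol, and the 2 cultures of a group were labelled as biological replicates. Abundance is given in TPM, a relative transcript abundance normalised for length that sums to 1000000 in every file and keeps no sequencing depth. No counting error can therefore be attached to a value.

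Caspases are proteases that take a cell apart in apoptosis. In the mitochondrial route, cytochrome c leaves the mitochondrion and joins APAF1 in the apoptosome, which activates the initiator CASP9 and through it further caspases, while XIAP blocks caspases and DIABLO, also known as SMAC, relieves that block. Death receptors act through CASP8, stress can act through CASP2 in the PIDDosome, and beta cells are known to use the mitochondrial route when their metabolism or protein folding is disturbed.

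In 3D culture, Casp2 was higher, while Cycs and Diablo were lower. Casp6, Casp9, Apaf1 and Xiap were tested and not called, and Casp8 was not tested. Of the 8 members, 7 had a mean of at least 1 TPM and were tested, and 3 of these had an adjusted p below 0.05 in limma, 1 higher and 2 lower. Over all 11960 genes tested, 4543 passed the same threshold, which is 38.0%, with 18.5% called higher and 19.5% called lower, so the share of 42.9% among the tested members was near that of the background. The groups did not overlap in 4 of the 7 tested members, against 74.2% of all genes tested. The median log2 fold change of the 7 was -0.0036, and that of all genes tested was -0.0035. In bulk RNA, fewer cells of a type and less RNA per cell cannot be told apart. With 2 cultures against 2, the smallest two-sided p of an exact permutation test is 0.33 for any gene, and every call depends on limma pooling the spread over genes.

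**Figure D1:**
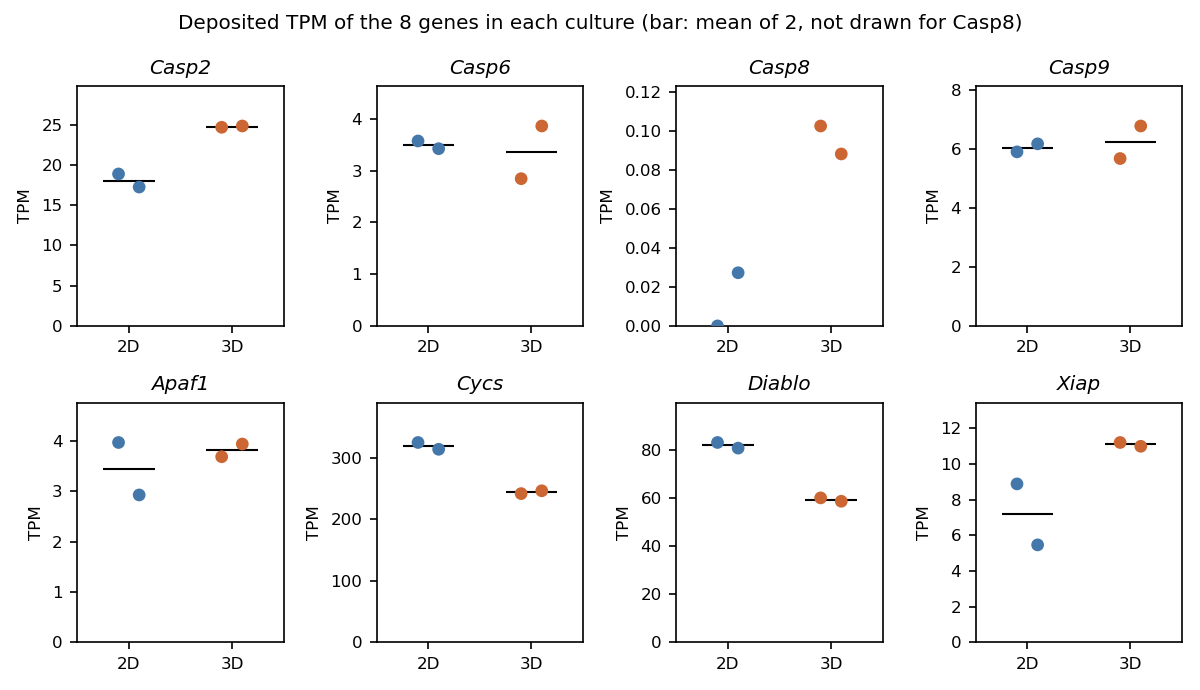
Deposited TPM (y axes, each from 0) of the 8 genes in the 2D monolayer (blue) and 3D bioprinted (orange) cultures, 1 point per culture, with a bar at the mean of each group except for Casp8. The groups are apart for Casp2, Cycs, Diablo and Xiap, and for Casp8 at values of at most 0.103 TPM, and the monolayer cultures of Xiap are far apart at 8.88 and 5.46 TPM.

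Cycs encodes somatic cytochrome c, which carries electrons in respiration and triggers the apoptosome once released. It measured 325 and 314 TPM in monolayer replicates 1 and 2 and 242 and 247 TPM in 3D replicates 1 and 2. Both 3D cultures were below both monolayer cultures, and the gap was wider than the spread within either group. Group means were 319.7 ± 7.82 TPM (SD, n = 2) and 244 ± 3.25 TPM (SD, n = 2). The log2 fold change on the scale of log2(TPM + 1) was -0.43, with a standard error of 0.05, a 95% interval from -0.56 to -0.30 and an adjusted p of 0.0055 in limma. RefSeq names 3 Cycs-like genes and 7 Cycs pseudogenes in the rat, while the files list no other symbol that begins with Cycs. Reads from near-identical copies may have been counted to Cycs, and its level is uncertain to that extent.

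Diablo encodes the mitochondrial protein that binds IAPs, the inhibitors of apoptosis, once it has been released. It measured 83.3 and 80.9 TPM in the monolayer cultures and 60.2 and 58.8 TPM in the 3D cultures. Both 3D cultures were below both monolayer cultures, by more than the replicates differed. Its log2 fold change was -0.50 with a standard error of 0.05, a 95% interval from -0.64 to -0.36 and an adjusted p of 0.0048 in limma. Leaving out 3D replicate 1 ended the call of Cycs (adjusted p = 0.0691 in limma) and of Diablo (0.0590), and leaving out 3D replicate 2 ended that of Cycs (0.0507) but not that of Diablo (0.0473). The log2 fold change of Cycs was -0.43 in each of these fits, and that of Diablo was -0.53 without 3D replicate 1 and -0.47 without 3D replicate 2. Over the 12 other settings, the adjusted p ranged from 0.0038 to 0.0691 for Cycs and from 0.0022 to 0.0590 for Diablo.

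The promoters of Cycs and Diablo are shown because these genes, both for proteins of the mitochondrial intermembrane space, were the members that fell together. The sequences are from RefSeq (GRCr8), and windows for 6 of the 8 members were used here. Each is the 250 bases before the gene's start, 5′ to 3′ on the gene's own strand, at chr4:80984768-80985017 on the minus strand for Cycs and chr12:38716418-38716667 on the plus strand for Diablo. Capitals mark the motif matches described next.
Cycs: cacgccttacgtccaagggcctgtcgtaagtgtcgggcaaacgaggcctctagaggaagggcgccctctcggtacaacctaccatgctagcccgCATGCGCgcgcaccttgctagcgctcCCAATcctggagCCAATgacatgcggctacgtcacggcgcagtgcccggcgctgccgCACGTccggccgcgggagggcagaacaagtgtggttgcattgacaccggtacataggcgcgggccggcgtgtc
Diablo: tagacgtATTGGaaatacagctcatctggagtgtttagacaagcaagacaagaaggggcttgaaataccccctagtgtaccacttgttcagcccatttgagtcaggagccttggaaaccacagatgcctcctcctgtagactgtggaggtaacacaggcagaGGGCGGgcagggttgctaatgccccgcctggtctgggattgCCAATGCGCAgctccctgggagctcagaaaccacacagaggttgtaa

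Motifs were searched on both strands of the whole 300-base windows, which run 50 bases past the start. The CCAAT box (CCAAT) was in the windows of Cycs, Diablo and Casp2, and in 37.5% of all 33469 promoters. The GC box (GGGCGG) was in those of Diablo, Casp2, Casp6, Casp9 and Apaf1, and in 33.1% of promoters. An NRF1 core (TGCGCA) was in those of Diablo and Casp2, and in 7.24% of promoters. In the Diablo promoter that match overlaps a CCAAT box. The E2F core (TTCCCGC, 4.21% of promoters) was in that of Casp2, the ETS core (CCGGAAG, 8.75%) in that of Casp9, and the HIF core (ACGTG, 19.3%) in those of Cycs, Casp9 and Apaf1. The CRE (TGACGTCA, 1.83%) was in none of the 6. An NRF1 site in another form (CATGCGC), which overlaps the NRF1 core in the Casp2 promoter, was in the windows of Cycs, Casp2 and Apaf1 and in 3.77% of promoters. It was added after the sequences of the members had been read and the first form had been found absent from Cycs, so its match there is a choice made on this sequence. Cycs and Diablo shared the CCAAT box and no other of the 8 motifs. G and C made up 53.3% (Diablo) to 73.7% (Apaf1) of the bases in the windows of the 6 members, beside a median of 51.7% over all windows. The shares of promoters were not matched for this. A match is a description of letters and not a binding site.

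Apaf1, the scaffold of the apoptosome, measured 3.96 and 2.92 TPM in the monolayer cultures and 3.68 and 3.93 TPM in the 3D cultures. The 3D values lay between those of the monolayer cultures, which themselves differed more than the group means. Its log2 fold change was 0.09, with a 95% interval from -0.22 to 0.40 and an adjusted p of 0.594 in limma, and its sign turned without monolayer replicate 2.

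Casp9, the initiator that the apoptosome activates, measured 5.91 and 6.18 TPM in the monolayer cultures and 5.68 and 6.79 TPM in the 3D cultures. The monolayer values lay inside the range of the 3D values. Its log2 fold change was -0.0036, with a 95% interval from -0.26 to 0.26 and an adjusted p of 0.981 in limma, and the sign depended on the scaling. The transcript ENSRNOT00000085378.1 measured 0.954 and 1.27 TPM in the monolayer cultures and 1.25 TPM in 3D replicate 2, and was listed at 0 in 3D replicate 1. That culture also had the lowest total for the gene, while its main transcript, ENSRNOT00000017972.6, ranged from 4.77 to 5.28 TPM over the 4 cultures.

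Casp2, an initiator that is recruited to the PIDDosome through CRADD, was the member that rose. It measured 18.9 and 17.3 TPM in the monolayer cultures and 24.7 and 24.9 TPM in the 3D cultures. The 3D cultures were close to each other and above both monolayer cultures. Group means were 18.1 ± 1.15 TPM (SD, n = 2) and 24.8 ± 0.113 TPM (SD, n = 2), and the log2 fold change was 0.39, with a standard error of 0.06, a 95% interval from 0.24 to 0.54 and an adjusted p of 0.0088 in limma. The call was lost without 3D replicate 1 (adjusted p = 0.0891 in limma) and without 3D replicate 2 (0.0680), with log2 fold changes of 0.39 and 0.40, and the adjusted p ranged from 0.0051 to 0.0891 over the 12 other settings.

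Casp2 was listed with 2 transcripts. ENSRNOT00000022672.6 held most of the gene, at 18.8 and 17.1 TPM in the monolayer cultures and 23.9 and 23.2 TPM in the 3D cultures, and rose (log2 fold change 0.31, adjusted p = 0.0344 in limma over 15020 transcripts). ENSRNOT00000022543.5 measured 0.0659 and 0.127 TPM in the monolayer cultures and 0.822 and 1.65 TPM in the 3D cultures. Its share of the gene was 0.349% and 0.734% in monolayer and 3.33% and 6.66% in 3D culture, so the shares did not overlap, although its mean of 0.667 TPM kept it out of the test.

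Casp8, the initiator of the death receptor route, was listed at 0 TPM in monolayer replicate 1, 0.0273 TPM in monolayer replicate 2, 0.103 TPM in 3D replicate 1 and 0.0882 TPM in 3D replicate 2. It was the member not tested, its mean of 0.0545 TPM being under the minimum. Hspa8, a chaperone that cells make constitutively, was itself listed at 0.0956 and 0.102 TPM in the monolayer cultures and at 0 in both 3D cultures, so a value at or near 0 in these files can be a failed estimate. No fold is given for Casp8.

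Casp6, an executioner that cleaves lamins, measured 3.57 and 3.42 TPM in the monolayer cultures and 2.84 and 3.86 TPM in the 3D cultures. The 3D cultures lay on either side of the monolayer cultures. Its log2 fold change was -0.09, with a 95% interval from -0.42 to 0.24 and an adjusted p of 0.610 in limma, and its sign turned without 3D replicate 1. The transcript ENSRNOT00000092954.1 was listed at 0.587 and 0 TPM in the monolayer cultures and at 0 and 0.941 TPM in the 3D cultures. The main transcript, ENSRNOT00000013049.6, measured 2.78 and 3.25 TPM in the monolayer cultures and 2.61 and 2.44 TPM in the 3D cultures, with an adjusted p of 0.266 in limma.

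Xiap, the inhibitor that binds caspases directly, measured 8.88 and 5.46 TPM in the monolayer cultures and 11.2 and 10.98 TPM in the 3D cultures. The groups did not overlap, but the monolayer cultures differed from each other by more than monolayer replicate 1 did from 3D culture. Its log2 fold change of 0.56 was the largest of the members in size, with a standard error of 0.18, a 95% interval from 0.11 to 1.01 and an adjusted p of 0.0568 in limma, which did not pass the threshold. The size depended on which monolayer culture was kept. The log2 fold change was 0.28 without monolayer replicate 2 and 0.83 without monolayer replicate 1. The adjusted p ranged from 0.0119 to 0.217 over the 12 other settings and passed the threshold in 3 of them. The main transcript, ENSRNOT00000009336.3, measured 8.27 and 5.02 TPM in the monolayer cultures and 10.2 and 9.42 TPM in the 3D cultures (adjusted p = 0.153 in limma). The lesser one, ENSRNOT00000085110.1, measured 0.605 and 0.444 TPM in the monolayer cultures and 1.02 and 1.57 TPM in the 3D cultures.

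The differences between cultures moved with gene span, the length of a gene with its introns, a description made after the data had been seen. Spans were taken from RefSeq (GRCr8), another build than that of the files, for 10585 of the 11960 genes tested (88.5%) and all 7 tested members. From the quartile of shortest genes to that of longest, the median log2 difference of monolayer replicate 2 from monolayer replicate 1 was 0.073, 0.028, -0.016 and -0.074, and that of 3D from monolayer culture was -0.13, -0.042, 0.018 and 0.12. Between the 3D replicates the medians ran from -0.0043 to 0.0045. Xiap was in the quartile next to the longest, with a log2 difference between the monolayer replicates of -0.55, and Apaf1, at -0.28, was in the longest. Cycs was in the shortest, and Casp2, Casp6, Casp9 and Diablo were in the one after it. The part of gene span in the results for these genes was not tested.

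Of the 17 transcripts of the members, 7 were tested and 3 were called, those of Cycs and Diablo, each the gene's sole listed transcript, and the main one of Casp2. Of all 15020 transcripts tested, 23.5% were called. A further 3 of the 17 were listed at 0 in all 4 cultures, 1 each for Casp8, Casp9 and Xiap. Without monolayer replicate 2, 3D replicate 1 or 3D replicate 2, limma called none of the members' transcripts, with 3 at an unadjusted p below 0.05 in each of those fits.

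**Figure D2:**
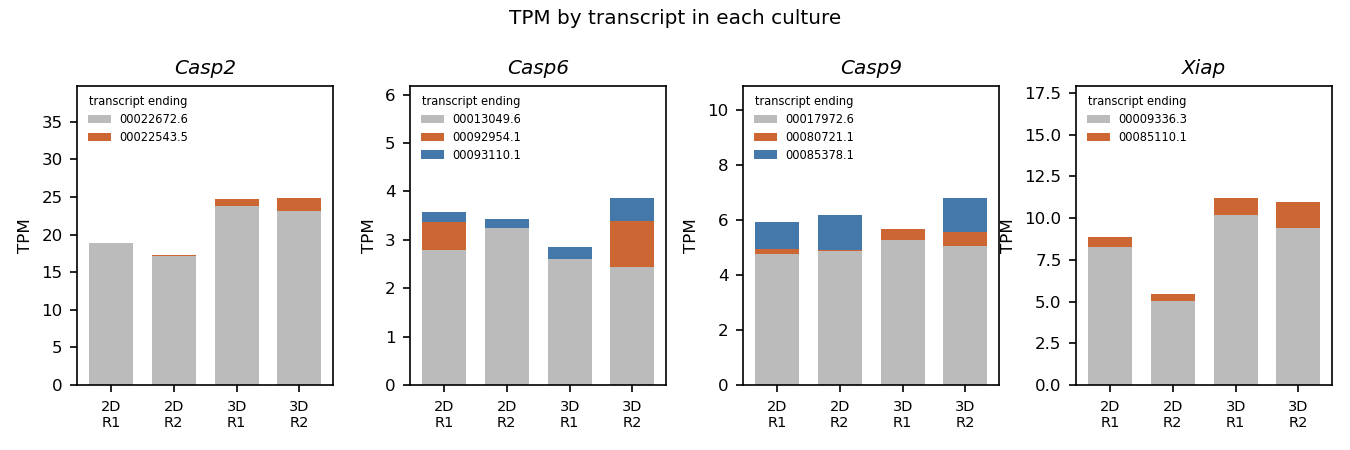
Stacked bars of TPM (y axes, each from 0) by transcript for Casp2, Casp6, Casp9 and Xiap in replicates 1 and 2 (R1, R2) of the 2D monolayer and 3D bioprinted cultures. The lesser transcript of Casp2 reaches 0.822 and 1.65 TPM in the 3D cultures, and a lesser transcript of Casp6 and of Casp9 is listed at 0 in some cultures.

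Per length, the order of the members' levels over the 4 cultures was Cycs, with a mean of 282 TPM, then Diablo (70.8 TPM), Casp2 (21.4 TPM), Xiap (9.13 TPM), Casp9 (6.14 TPM), Apaf1 (3.63 TPM), Casp6 (3.42 TPM) and Casp8 (0.0545 TPM). The levels of Apaf1 and Casp6 overlapped between cultures, as did those of Xiap and Casp9, which changed places in monolayer replicate 2. Cycs was above 96.4% of the genes tested and Diablo above 85.7%, while Apaf1 was above 15.0% and Casp6 above 14.2%. Cycs made up 72.3% and 73.0% of the members' summed TPM in the monolayer cultures and 69.1% and 69.3% in 3D culture.

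Ratios between members were taken within each culture as a description, without a test. The ratio of Diablo to Xiap, the antagonist to the inhibitor, was 9.38 and 14.8 in monolayer and 5.38 and 5.35 in 3D culture. The ratio of Cycs to Apaf1 was 82.1 and 107 in monolayer and 65.8 and 62.7 in 3D culture. In both ratios, the 3D cultures lay below the monolayer cultures and closer to each other. For Diablo to Xiap that order followed from the single genes, as Diablo was lower and Xiap, not called, was higher in both 3D cultures. Xiap, at 8.88 and 5.46 TPM, carried most of the monolayer spread of that ratio. The ratio of Casp9 to Apaf1 was 1.49 and 2.11 in monolayer and 1.54 and 1.73 in 3D culture, and the groups overlapped. The ratio of Cycs to Diablo was 3.91 and 3.88 in monolayer and 4.02 and 4.20 in 3D culture, with both 3D cultures above both monolayer cultures. The ratio of Xiap to Casp9 was 1.502 and 0.884 in monolayer and 1.97 and 1.62 in 3D culture, again without overlap.

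**Figure D3:**
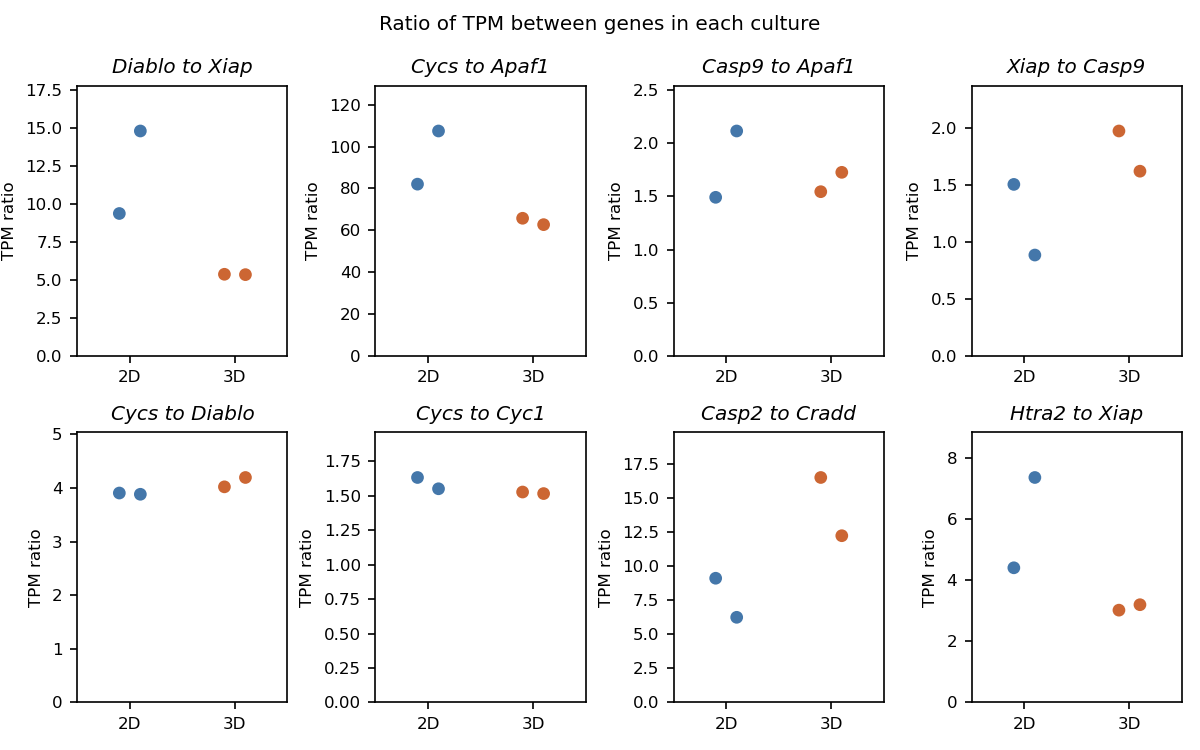
Ratio of TPM (y axes, each from 0) between 8 pairs of genes in each 2D monolayer (blue) and 3D bioprinted (orange) culture. Both 3D cultures lie below both monolayer cultures for 4 ratios (Diablo to Xiap, Cycs to Apaf1, Cycs to Cyc1, Htra2 to Xiap) and above them for 3 (Xiap to Casp9, Cycs to Diablo, Casp2 to Cradd), and the groups overlap for Casp9 to Apaf1. For Diablo to Xiap, Htra2 to Xiap and Casp2 to Cradd, the separation follows from the single genes, which were apart in opposite directions. Of single genes tested, 74.2% were apart, and no background share was taken for ratios.

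The other genes of the pathway were taken from 7 lists. Of their 80 symbols 75 were in the files and 55 were tested, of which 4 (7.27%) were called higher and 28 (50.9%) lower, against 18.5% and 19.5% of all genes tested, with a median log2 fold change of -0.25 against -0.0035 over all genes tested. Respiratory genes made up 16 of the 28. Without that list, 34 genes were tested, 4 (11.8%) were called higher and 12 (35.3%) lower, and the median was -0.17. All 17 pathway genes named below by the rule kept their sign in the 12 other settings, but not their calls. Without 3D replicate 1 limma called none of the 17, with 28 of the 55 pathway genes at an unadjusted p below 0.05, and without 3D replicate 2 it called 7.

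Of the caspase list, Casp1, Casp4, Casp12 and Casp14 were under the minimum. Casp4, an inflammatory caspase, was the highest of these, at 0.450 and 0.421 TPM in the monolayer cultures and 0.923 and 1.17 TPM in the 3D cultures.

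In the IAP family 4 genes were tested beside Xiap, and 1 (25%) was called in each direction, where all genes tested gave 18.5% higher and 19.5% lower. The list's median log2 fold change was -0.073. Birc5 encodes survivin, which serves in cell division as well as in the restraint of apoptosis. It measured 92.1 and 104.6 TPM in the monolayer cultures and 61.1 and 63.5 TPM in the 3D cultures, a fall with a log2 fold change of -0.69 and an adjusted p of 0.0065 in limma. Birc6, which encodes a giant ubiquitin ligase, measured 10.4 and 5.98 TPM in the monolayer cultures and 15.1 TPM in each 3D culture, with a log2 fold change of 0.81 and an adjusted p of 0.0304 in limma. Its monolayer replicate 2 was below its monolayer replicate 1, as in Xiap. The call of Birc6 was lost with no expression filter and with the most abundant transcript in place of the sum. It was also lost without 3D replicate 1 and without 3D replicate 2. Over the 12 other settings the log2 fold change of Birc6 ranged from 0.48 to 1.13. Birc2 and Birc3, the cellular IAPs, were not called (adjusted p = 0.141 and 0.914 in limma), and Birc7 was under the minimum.

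Of 6 tested regulators of IAPs and caspases, 3 (50%) fell and none was called higher, beside 19.5% and 18.5% of all genes tested, and the median log2 fold change was -0.22. Htra2, a mitochondrial protease that binds IAPs as DIABLO does, measured 39.2 and 40.2 TPM in the monolayer cultures and 33.8 and 35.2 TPM in the 3D cultures (log2 fold change of -0.24, limma adjusted p = 0.0349). Siva1, a pro-apoptotic adaptor, measured 64.6 and 62.9 TPM in the monolayer cultures and 47.1 and 43.9 TPM in the 3D cultures (log2 fold change of -0.52, limma adjusted p = 0.0057). Nol3, which encodes ARC, a caspase repressor, measured 24.9 and 23.5 TPM in the monolayer cultures and 15.7 and 19.2 TPM in the 3D cultures (log2 fold change of -0.50, limma adjusted p = 0.0151). The genes that fell thus code for proteins of opposite action on caspases. The calls of all 3 were lost without 3D replicate 1, and those of Htra2 and Nol3 also without monolayer replicate 2. That of Htra2 was lost as well without 3D replicate 2, without scaling and without the intensity trend. Over the 12 other settings the log2 fold change ranged from -0.30 to -0.19 for Htra2 and from -0.62 to -0.37 for Nol3. The ratio of Htra2 to Xiap was 4.41 and 7.37 in monolayer and 3.02 and 3.20 in 3D culture.

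Of 5 tested genes of apoptosome assembly, 2 (40%) fell and none was called higher, beside 19.5% and 18.5% of all genes tested, and the median log2 fold change was -0.16. Aven, whose product binds APAF1 and restrains it, measured 13.2 and 14.0 TPM in the monolayer cultures and 8.50 and 10.8 TPM in the 3D cultures (log2 fold change of -0.50, limma adjusted p = 0.0248). Anp32a, which encodes a protein that promotes apoptosome activity, measured 152 and 163 TPM in the monolayer cultures and 132 and 126 TPM in the 3D cultures (log2 fold change of -0.33, limma adjusted p = 0.0255). In both genes the groups did not overlap, and the calls were lost without monolayer replicate 2 and without 3D replicate 1. That of Anp32a was also lost without 3D replicate 2, and that of Aven with no expression filter. Over the 12 other settings the log2 fold change ranged from -0.65 to -0.36 for Aven and from -0.42 to -0.24 for Anp32a.

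Of 7 tested genes of the PIDDosome and death receptors, 1 (14.3%) was called in each direction, beside 18.5% higher and 19.5% lower of all genes tested, and the median log2 fold change was -0.050. Fadd, the adaptor that joins death receptors to CASP8, measured 10.8 and 9.80 TPM in the monolayer cultures and 8.63 and 8.48 TPM in the 3D cultures (log2 fold change of -0.28, limma adjusted p = 0.0319). Daxx, which encodes a histone chaperone that was first described as a FAS-binding protein, measured 51.9 and 44.2 TPM in the monolayer cultures and 57.7 and 63.8 TPM in the 3D cultures (log2 fold change of 0.29, limma adjusted p = 0.0358). Omission of any culture ended the call of Fadd, and omission of monolayer replicate 2 or of either 3D culture ended that of Daxx. Over the 12 other settings the log2 fold change ranged from -0.31 to -0.24 for Fadd and from 0.21 to 0.37 for Daxx. The call of Fadd was also lost without scaling, and that of Daxx with no expression filter, without the intensity trend and with the most abundant transcript. Cradd, the adaptor of CASP2, measured 2.07 and 2.76 TPM in the monolayer cultures and 1.49 and 2.03 TPM in the 3D cultures and was not called (adjusted p = 0.163 in limma), and Pidd1 was listed at 0 in all 4 cultures. The ratio of Casp2 to Cradd was 9.12 and 6.25 in monolayer and 16.5 and 12.2 in 3D culture.

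Of 12 tested substrates and nucleases, 2 (16.7%) rose and 5 (41.7%) fell, beside 18.5% and 19.5% of all genes tested, and the median log2 fold change was -0.19. The 4 with the smallest p were Lmna, Parp1, Lmnb1 and Sptan1. Lmna, which encodes lamin A, a substrate of CASP6, measured 126 and 120.02 TPM in the monolayer cultures and 86.3 and 90.5 TPM in the 3D cultures (log2 fold change of -0.52, limma adjusted p = 0.0044). Parp1, a DNA repair enzyme that is cleaved in apoptosis, fell as well (log2 fold change -0.42, adjusted p = 0.0068 in limma), as did Lmnb1, for lamin B1 (-0.35 and 0.0125). Sptan1, which encodes alpha-II spectrin, rose from 78.6 and 75.6 TPM in monolayer to 94.3 and 102 TPM in the 3D cultures (log2 fold change of 0.30, limma adjusted p = 0.0148). Pak2, a kinase that caspases activate by cleavage, falls outside the rule and is named, with its values seen, because it completes the 4 pathway genes called higher with Birc6, Daxx and Sptan1. It measured 10.1 and 7.15 TPM in the monolayer cultures and 12.7 TPM in each 3D culture (log2 fold change 0.49, adjusted p = 0.0362 in limma). The log2 difference of its monolayer replicate 2 from monolayer replicate 1 was -0.38, which is large beside that fold change.

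By gene span, of the 4 pathway genes called higher, Birc6, Pak2 and Sptan1 were in the quartile of longest genes and Daxx was in that of shortest. Of the 14 named pathway genes called lower, 8 were in the quartile of shortest genes, 1 and 4 in those between, and 1, Aven, in that of longest. The 8 include the respiratory genes Cox7b, Cox7a2l2, Uqcrq and Uqcrh, picked by smallest p. The 14 are only part of the 28 pathway genes called lower. The others, and all genes called, were not counted by span, so no background share stands beside these counts. The part of gene span in these calls was not tested.

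**Figure D4:**
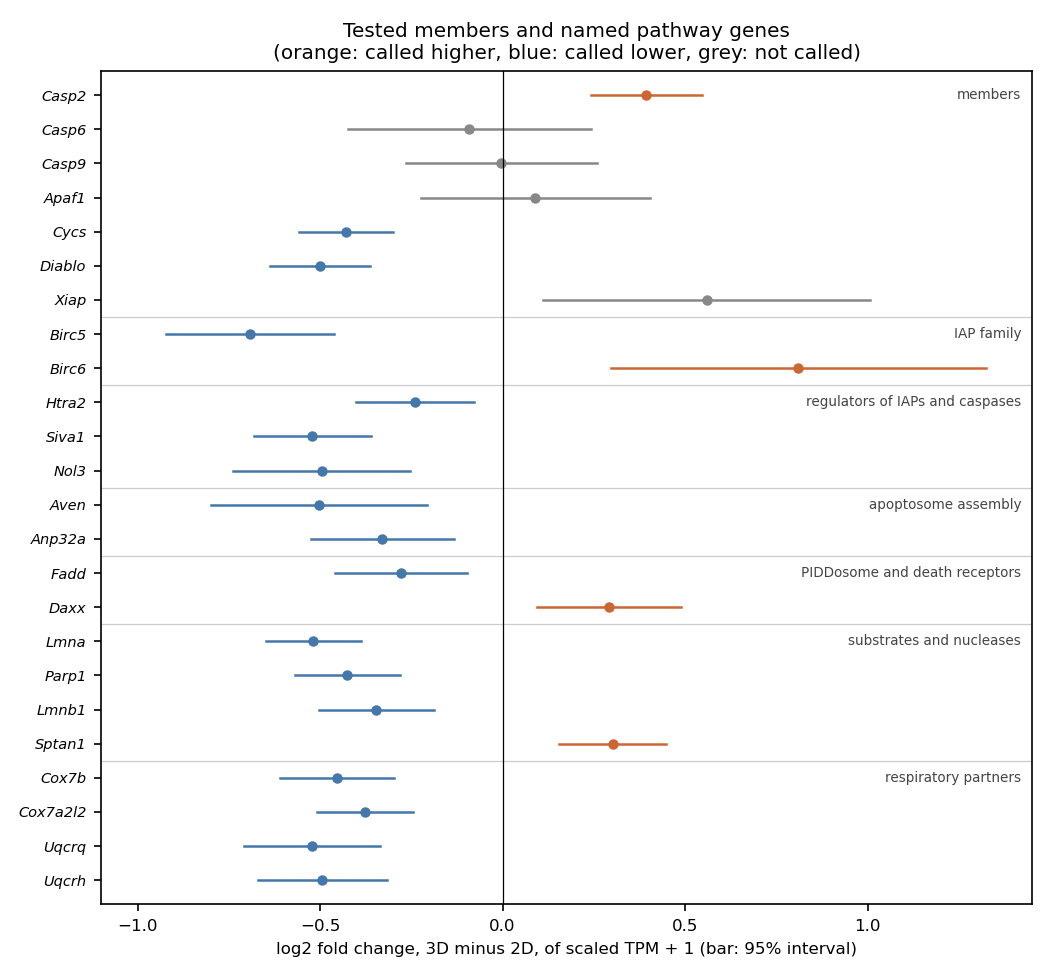
Log2 fold change (x axis, 3D minus 2D, of scaled TPM + 1) with its 95% interval for the 7 tested members and the 17 pathway genes named by the rule, grouped by list. Cycs and Diablo lie at -0.43 and -0.50, Casp2 at 0.39, and Xiap at 0.56 with a wide interval from 0.11 to 1.01.

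Cytochrome c passes electrons from complex III to complex IV, and most tested nuclear genes of these complexes were lower in 3D culture too. Subunits encoded by mitochondrial DNA were not on the list. Of 21 nuclear genes tested, 16 (76.2%) were called lower and none higher, against 19.5% and 18.5% of all genes tested. All 21 had a negative log2 fold change, as had 6041 of the 11960 genes tested, and their median was -0.39 beside -0.43 for Cycs and -0.0035 over all genes tested. The 4 with the smallest p were Cox7b, Cox7a2l2, Uqcrq and Uqcrh. Cox7b, a subunit of complex IV, measured 723 and 717 TPM in the monolayer cultures and 522 and 562 TPM in the 3D cultures (log2 fold change of -0.45, limma adjusted p = 0.0069). Uqcrh, a subunit of complex III, measured 414 and 434 TPM in the monolayer cultures and 317 and 304 TPM in the 3D cultures (log2 fold change of -0.49, limma adjusted p = 0.0075). Cox7a2l2 and Uqcrq had log2 fold changes of -0.38 and -0.52 (adjusted p = 0.0070 and 0.0075 in limma). The ratio of Cycs to Cyc1, the cytochrome c1 of complex III, was 1.63 and 1.55 in monolayer and 1.53 and 1.52 in 3D culture.

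**Figure D5:**
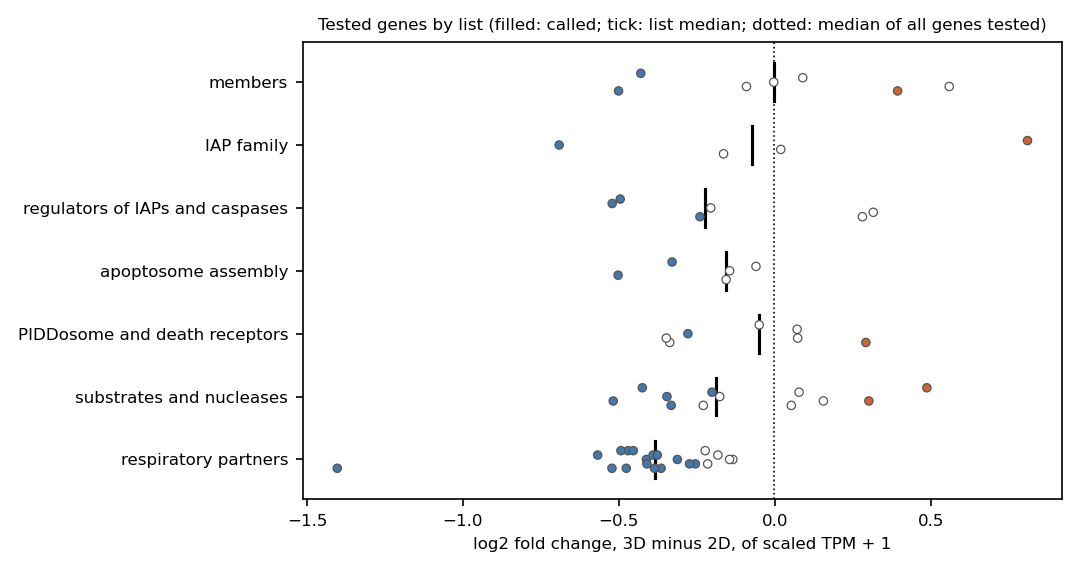
Log2 fold change (x axis, 3D minus 2D, of scaled TPM + 1) of every tested gene of the members and of the 6 pathway lists with a tested gene, 1 point per gene, filled orange where called higher and blue where called lower, with a tick at each list's median and a dotted line at the median of all genes tested. The respiratory list has a median of -0.39, and the members spread on both sides of the line.

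As a description, the tested genes whose centred log2 values over the 4 cultures lay nearest to those of Cycs were Nusap1, Zbtb8os and Txn1, at Euclidean distances of 0.0211, 0.0212 and 0.0223. The nearest to Xiap were AABR07058884.2, Dcp2 and Lin7c, at distances of 0.0262, 0.0298 and 0.0468.

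Marker genes were read beside these results. All 12 beta cell markers were above 0, with a summed level of 149765, 163419, 162306 and 175766 TPM in monolayer replicates 1 and 2 and 3D replicates 1 and 2, led by Ins1. Of the 12, 4 (33.3%) were called higher and 1 (8.33%), Ins2, lower, against 18.5% and 19.5% of all genes tested. Ins1, the more abundant insulin gene, was not called (log2 fold change 0.099, adjusted p = 0.682 in limma). It measured 114003 and 126460 TPM in the monolayer cultures and 127527 and 137822 TPM in the 3D cultures. Ins2, an insulin gene of the rat, measured 13237 and 13340 TPM in the monolayer cultures and 8957 and 9326 TPM in the 3D cultures (log2 fold change of -0.58, limma adjusted p = 0.0095). Pax6 (0.59), Slc2a2 (0.39) and Chgb (0.79) were the others of the 4 with the smallest p, with the log2 fold change in brackets. Leaving out 3D replicate 1 ended the calls of all 4, and leaving out 3D replicate 2 those of Slc2a2, Ins2 and Chgb. Ins2 and Chgb also lost their calls with no expression filter.

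The summed level of 5 alpha, delta and PP cell markers was 42.2 and 74.4 TPM in the monolayer cultures and 124.5 and 156 TPM in the 3D cultures. It came almost wholly from Gcg, the glucagon gene, which was called higher (log2 fold change 1.26, adjusted p = 0.0217 in limma), while Ghrl was listed at 0 throughout. The call of Gcg was lost without 3D replicate 1, without 3D replicate 2 and with no expression filter. Its log2 fold change ranged from 0.82 to 1.70 over the 12 other settings. The sums over fibroblast and stellate markers were 1.91, 1.89, 2.35 and 2.26 TPM in the same order of cultures, led by Pdgfra, with Dcn and Pdgfrb at 0. Those over endothelial markers were 1.08, 1.15, 1.40 and 1.68 TPM, led by Kdr, with Cdh5 at 0. Those over leukocyte markers were 0.839, 0.562, 0.875 and 1.47 TPM, led by Cd68, with Ptprc at 0. Acinar and duct markers summed to 0.0276, 0, 0.0755 and 0.130 TPM, all from Krt19, with Cpa1, Prss1 and Cela1 at 0. Dcn, Pdgfrb, Cdh5, Ptprc, Cpa1, Prss1 and Cela1 were thus listed at 0 in both groups, where a listed 0 can be a failed estimate, while Gcg was not. The part of the Gcg and beta cell marker differences in the results for the caspase genes was not tested.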

How the data were processed

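The authors sequenced stranded mRNA libraries of 4 cultures single-end, checked reads with FastQC 0.11.8 and deposited TPM per transcript from Salmon 1.2, against a reference named rn4 with human insulin added (tools and build as the submitters' notes and methods give them). The files write decimal commas. The gene summary and DESeq2 test of the methods need counts and were not repeated. TPM were summed per symbol. Genes with a mean of at least 1 TPM were scaled between cultures with an unweighted TMM (trimmed mean of M values, cutting 30% of M and 5% of A; factors from 0.960 to 1.02), and limma 3.58.1 in R 4.3.3 was run on log2(TPM + 1) (empirical Bayes with an intensity trend), with Benjamini-Hochberg adjustment over all genes, or all transcripts, tested. Printed TPM are the deposited values without scaling, fold changes come from scaled values, and the pseudocount understates changes of scarce genes. Called means an adjusted p below 0.05. No transcript above 0 had an identical value in any pair of files. Tables were made with Python 3.11.15 and pandas 2.3.3. The fit was run on simulated data as a check of the code. The simulated data held no gene span trend, so they do not give the error rate here. The members and lists were chosen with earlier results of these data known. In each list up to 4 called genes were named, those with the smallest p where more were called, and untested caspases and IAPs were named. Symbols were matched exactly or through older symbols in RefSeq (GRCr8), and 5 of the pathway symbols were not analysed here. Some genes of the lists are not reported here, and list counts leave them out. Of the 8 promoter motifs, 1 was added after the sequences had been read. Alternatives were the scaling, pseudocount, expression filter, replicate block, intensity trend, transcript choice, threshold and each culture left out.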

Additional observations from a re-analysis of the deposited data

How the results depend on the processing

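Counts are given in the order members, pathway genes, all genes and members' transcripts, where the reported fit called 3, 32, 4543 and 3. Leaving out 1 culture, where the lone culture left is assumed to vary like the other group, moved these counts over 0 to 4, 0 to 35, 136 to 4526 and 0 to 3. The lowest came without 3D replicate 1, where 3 members and 28 pathway genes had an unadjusted p below 0.05, and without 3D replicate 2 the first 3 counts were 1, 8 and 1070. Fewer samples were fitted there, and the cause of the difference between cultures was not tested. At an adjusted p below 0.01, limma called 3, 14, 1436 and 0, with 3 transcripts at an unadjusted p below 0.05. Every other setting kept the counts within 1.5 times. The replicate block gave 4, 30, 4805 and 2. Same-numbered deviations had a correlation of -0.0060 across 11960 genes. Each group gives only 1 such difference, so whether equal numbers pair cultures cannot be settled from it. By direction, the reported fit called 2209 genes higher and 2334 lower, and the fit without scaling called 2258 higher and 1812 lower.

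Casp2, Cycs, Diablo and Xiap kept their sign in all 12 settings. Signs turned only in members that were not called in any setting. Casp9 had a log2 fold change of 0.034 without scaling, 0.0012 with median of ratios scaling, 0.017 at a mean TPM of at least 5 and 0.052 with the most abundant transcript, and from -0.10 to 0.10 with a culture left out. With a culture left out, Casp6 ran from -0.25 to 0.070 (without 3D replicate 1) and Apaf1 from -0.054 (without monolayer replicate 2) to 0.23. The cause was not tested. TPM keep no depth, so precision is that of 2 cultures a group.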
